A study of Mus musculus with 8 samples.

Results

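The genes described here are 8 members of the autonomic receptor pathway of the heart: the muscarinic receptors Chrm2 and Chrm3, the adrenergic receptors Adrb1, Adra1a and Adra1b, the adenylyl cyclases Adcy5 and Adcy6, and the receptor kinase Adrbk1. They were chosen by symbol from the 24516 genes of the count table, and each of the 8 was found and passed the filter on low counts, which kept 15075 genes. Bulk RNA sequencing was made of whole-heart RNA of mice at postnatal day 40, adult per the labels, in 3 genotypes. Wild-type mice (WT, n = 2) were compared with mice heterozygous (HET, n = 3) and homozygous (HOMO, n = 3) for a CRISPR/Cas9 deletion of a conserved enhancer of Actn2, the gene of the sarcomeric protein alpha-actinin 2. All mice came from the same litter per the labels, and strain, number of founder lines and sex are not given there. No treatment, transgene or Cre driver is named for any group. The question set by the design is the effect of the enhancer deletion in the living animal.

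Acetylcholine from vagal nerve endings slows the heart through the M2 receptor, which couples to the inhibitory G protein Gi, lowers cyclic AMP and opens an acetylcholine-gated potassium channel. Noradrenaline from sympathetic nerve endings acts on the beta-1 receptor, which couples to Gs and raises cyclic AMP through adenylyl cyclase, so that protein kinase A phosphorylates calcium-handling and contractile proteins. Alpha-1 receptors and the M3 receptor couple to Gq and phospholipase C. Receptor kinases and arrestins switch active receptors off.

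Libraries held 22230090 to 55902737 counts. Levels are CPM, counts scaled to a library of 1000000 and corrected by TMM for differences in RNA composition, and SD is the spread between libraries of a genotype. Actn2 had 2445 ± 365 CPM in WT, 1626 ± 74.4 CPM in HET and 1839 ± 256 CPM in HOMO (SD, n = 2, 3 and 3). Its log2 fold change was -0.59 in HET against WT (adjusted p = 0.0193) and -0.41 in HOMO against WT (adjusted p = 0.0771) by the quasi-likelihood test of edgeR. The HET call was lost in 8 of 21 alternative analyses, among them the fit without WT 2 (-0.40), with values of -0.73 to -0.17 over the 21. In HOMO 2 of the 21 called Actn2 lower, and the values ranged from -0.55 to 0.02. Cardiomyocyte markers were abundant in every library, with a summed level over 9 genes of 86652 and 99850 CPM in WT, 76020 to 79031 CPM in HET and 75556 to 83856 CPM in HOMO, so both WT libraries lay above the 6 deletion libraries. The first principal component, with 35.9% of the variance, set WT 2 (-61.4) apart from WT 1 (-10.8) and from the 6 deletion libraries (7.87 to 14.2), so comparisons with WT were also made without WT 2, which left 13.7% of genes called in HOMO and 15.1% in HET. Xist and Y-linked counts placed both sexes in every genotype, with WT 1 male and WT 2 female. The labels do not say more of separate animals than the shared litter, so p-values measure only the spread between these samples. In whole-heart RNA, fewer cells of a type and less RNA per cell cannot be told apart.

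The upstream sequences of Chrm2 and Adcy5, the members called higher in both deletion genotypes, and of Kcnj3 and Kcnj5, the cardiac subunits of the channel that the M2 receptor opens, are shown first, since these 4 genes recur in the results. Each is the 250 bases before the transcription start site of RefSeq (build GRCm38.p6), read on the strand of the gene. Capitals mark matches on either strand to the GC box GGGCGG, the CCAAT box CCAAT and the E-box CANNTG.
Chrm2, chr6:36387834-36388083, plus strand: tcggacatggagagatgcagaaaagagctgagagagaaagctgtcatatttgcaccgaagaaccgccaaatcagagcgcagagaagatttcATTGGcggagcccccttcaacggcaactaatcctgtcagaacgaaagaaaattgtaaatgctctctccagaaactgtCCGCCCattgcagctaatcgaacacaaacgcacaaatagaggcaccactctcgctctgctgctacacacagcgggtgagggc
Kcnj3, chr2:55435720-55435969, plus strand: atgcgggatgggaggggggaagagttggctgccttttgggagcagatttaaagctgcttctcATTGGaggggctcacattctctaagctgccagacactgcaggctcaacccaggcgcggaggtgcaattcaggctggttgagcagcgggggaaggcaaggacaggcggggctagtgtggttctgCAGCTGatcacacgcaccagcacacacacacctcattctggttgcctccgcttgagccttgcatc
Kcnj5, chr9:32344345-32344594, minus strand: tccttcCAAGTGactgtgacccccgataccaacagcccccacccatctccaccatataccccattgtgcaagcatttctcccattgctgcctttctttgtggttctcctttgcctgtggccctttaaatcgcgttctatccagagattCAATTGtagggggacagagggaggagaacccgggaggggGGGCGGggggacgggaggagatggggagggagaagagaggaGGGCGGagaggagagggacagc
Adcy5, chr16:35154614-35154863, plus strand: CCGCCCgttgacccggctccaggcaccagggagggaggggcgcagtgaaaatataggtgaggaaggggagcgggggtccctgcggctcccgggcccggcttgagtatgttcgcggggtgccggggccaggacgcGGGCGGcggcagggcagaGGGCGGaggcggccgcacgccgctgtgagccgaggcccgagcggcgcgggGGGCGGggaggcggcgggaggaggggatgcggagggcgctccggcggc

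The 4 windows differed in composition. The Chrm2 window was 50% G and C with 12 CpG dinucleotides, and the Adcy5 window 78% with 32. The windows of Kcnj3 and Kcnj5, the subunits of the acetylcholine-gated channel, were 58.4% and 58% with 7 CpG each. The Chrm2 window held 1 CCAAT box and 1 GC box, both on the reverse strand, at 159 and 82 bases before the start site. The Adcy5 window held 4 GC boxes, at 250, 116, 98 and 48 bases before the start. No window of the 4 held the GATA letters AGATAA, the cyclic AMP response element TGACGTCA, its half-site TGACG, which lies within it, or the TATA letters TATAAA. Of 32851 mouse windows of 250 bases, 32.7% held the GC box, 33.8% the CCAAT box, 66.2% the E-box, 9.99% the GATA letters, 1.55% the full response element, 17.8% its half-site and 12.4% the TATA letters. These matches are letters in a window, and no binding was measured. The promoter table held entries for 5 of the 8 members.

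Chrm2, which encodes the M2 receptor, was the member with the largest difference. It was read 194 and 111 times in WT 1 and 2, and 1438 to 4811 times in the deletion libraries. The levels were 7.48 and 3.85 CPM in WT, 65.2, 69.4 and 56.6 CPM in HET and 62.1, 83.8 and 69.9 CPM in HOMO. Every deletion library lay far above both WT libraries, and HET and HOMO overlapped. The level was 12.7-fold higher in HOMO than in WT (95% confidence interval 8.36 to 19.4, log2 fold change 3.67, SE 0.27, adjusted p = 6.47e-05). It was 11.3-fold higher in HET than in WT (7.43 to 17.2, log2 fold change 3.50, SE 0.27, adjusted p = 7.17e-05). HOMO and HET differed by 0.17 on the log2 scale, with an interval of -0.27 to 0.62. Chrm2 and Adcy5 were the members called higher, 2 of 8, in HOMO against WT and also in HET against WT, and 0 of 8 were called lower. Of all genes tested, 27.7% were called in HOMO against WT (15.3% higher and 12.4% lower) and 28.0% in HET against WT (15.2% higher and 12.8% lower), so the share of members called is near that of all genes. The size of the Chrm2 difference fell without WT 2 to 3.30 in HOMO and 3.12 in HET (log2), both still called.

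**Figure D1:**
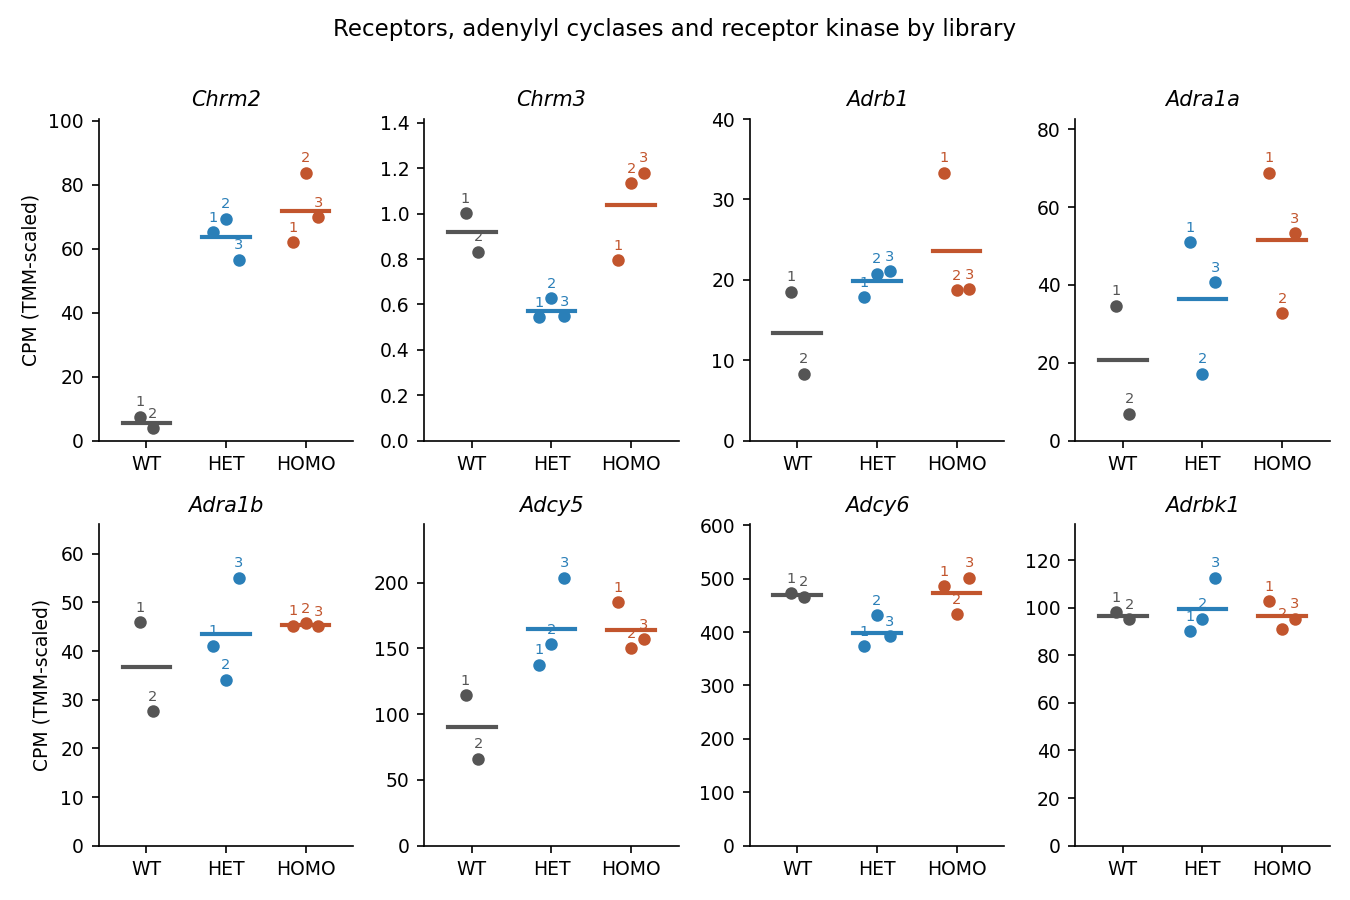
Level of each member in each library (vertical axis, TMM-scaled CPM from 0; horizontal axis, genotype). Points are libraries with their replicate numbers, and bars are genotype means. Chrm2 lies at 3.85 to 7.48 CPM in WT and at 56.6 to 83.8 CPM in the deletion libraries, and WT 2 is the lowest library for Adrb1, Adra1a, Adra1b and Adcy5.

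Chrm2 spans chr6:36388084-36528414 on the plus strand (GRCm38, GENCODE vM21). Its exons overlap those of the lincRNA 9330158H04Rik on the opposite strand, and the counting's strand setting is not given in the sources used here, so reads in the overlap cannot be assigned with certainty. 9330158H04Rik went the other way. It had 16.2 and 21.2 CPM in WT, 9.83 to 11.3 CPM in HET and 10.9 to 11.8 CPM in HOMO. Its log2 fold change was -0.71 in HOMO (SE 0.17, adjusted p = 0.0135) and -0.80 in HET (SE 0.17, adjusted p = 0.00785), and neither was called without WT 2 (-0.46 and -0.56, adjusted p = 0.147 and 0.0803). In both WT libraries this lincRNA had more counts than Chrm2, and in the 6 deletion libraries it had fewer.

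M2 receptors are dense in atrial muscle, so atrial markers are given beside Chrm2. Of 8 tested atrial cardiomyocyte markers, 0 were higher and 5 lower in each deletion genotype against WT (Myl7, Sln, Myl4, Dkk3 and Stard10, of which Stard10 lost its call without WT 2 or without any 1 HOMO library in HOMO, and without WT 2, HET 2 or HET 3 in HET), with a median log2 fold change of -1.91 in HOMO and -1.87 in HET, beside -0.03 over all genes tested in each comparison. Nppa, Nr2f1 and Nr2f2 were not called, and Nppa, which encodes atrial natriuretic peptide, was higher in HET 1 (415 CPM), HET 2 (312 CPM) and HOMO 3 (362 CPM) than in WT 1 (283 CPM). The summed level of the 9 atrial markers, most of it Nppa, was 377 and 642 CPM in WT, 132 to 459 CPM in HET and 147 to 402 CPM in HOMO, so the genotypes overlapped. Lower calls were made in other lists as well. Over all 77 tested markers of 10 cell types 6 were higher and 20 lower in HOMO, and 7 and 23 in HET, with medians of -0.40 in each. Among the other lists 4 of 9 endothelial markers were lower in HOMO and 3 in HET, with 0 higher. Of 10 smooth muscle and pericyte markers 3 and 5 were lower, and 1 was higher in each (Abcc9). Of 8 Schwann cell markers 1 and 4 were lower and 0 higher. Of 9 cardiomyocyte markers 2 and 3 were lower, and 2 were higher in each (Ttn and Pln). Of 9 macrophage markers 2 and 1 were lower and 2 and 3 higher. Of 9 fibroblast markers 2 and 1 were lower and 0 higher. Of 4 tested adipocyte markers 1 was lower in each (Cfd) and 0 higher, with the lowest medians of the 10 lists (-4.01 in HOMO and -3.98 in HET). Cfd had 1.08 CPM in WT 1 and 11.1 CPM in WT 2, and without WT 2 the adipocyte medians were -1.72 and -1.70. Of all genes tested, 12.4% and 12.8% were called lower and 15.3% and 15.2% higher. Without WT 2, 4 markers were higher and 9 lower in HOMO, and 5 and 12 in HET. Of 6 tested sinoatrial node markers, 1 was higher and 0 lower in each deletion genotype. That marker was Hcn4, a pacemaker channel opened by cyclic AMP, with a log2 fold change of 1.55 in HOMO (adjusted p = 0.0325) and 1.52 in HET (adjusted p = 0.0349), not called in either genotype without WT 2 (adjusted p = 0.107 and 0.112) and called in 4 and 3 of the 8 fits with a library left out. The summed level of the 8 node markers was 178 to 223 CPM in WT, 119 to 211 CPM in HET and 151 to 175 CPM in HOMO, and the defining node genes Shox2 and Isl1 were below 1 CPM in every library. Neuron markers summed to 9.25 to 23.1 CPM in WT, 8.12 to 13.5 CPM in HET and 6.56 to 10.8 CPM in HOMO. Among them Th and Chat were below 1 CPM in every library and Slc18a3 had no count. The part of cell make-up in the Chrm2 difference was not tested.

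Chrm3, which encodes the Gq-coupled M3 receptor, was near the lower limit of the data, with 12 to 65 counts in a library. Its levels were 1.0 and 0.83 CPM in WT, 0.54, 0.63 and 0.55 CPM in HET and 0.79, 1.13 and 1.18 CPM in HOMO. The HET libraries were the lowest 3 of the 8, and HOMO overlapped WT. No comparison passed the threshold: the log2 fold change was -0.67 in HET against WT (interval -1.83 to 0.48, adjusted p = 0.368), 0.18 in HOMO against WT (-0.96 to 1.31, adjusted p = 0.827) and 0.85 in HOMO against HET (-0.18 to 1.88, adjusted p = 0.9996). Chrm3 lies on chromosome 13, as Actn2 does, 1.91 Mb away.

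Adrb1 encodes the beta-1 receptor, the main catecholamine receptor of heart muscle. Its levels were 18.5 and 8.32 CPM in WT, 17.9, 20.8 and 21.1 CPM in HET and 33.3, 18.7 and 18.8 CPM in HOMO. WT 2 was lowest and HOMO 1 highest, and WT 1 lay beside the remaining libraries. The log2 fold change was 0.82 in HOMO against WT (SE 0.35, interval 0.04 to 1.60, adjusted p = 0.110) and 0.57 in HET against WT (SE 0.35, interval -0.20 to 1.35, adjusted p = 0.251), neither called. The outcome changed with the WT library kept and with the method. Against WT 2 alone the log2 fold changes were 1.51 (adjusted p = 0.00881) and 1.27 (adjusted p = 0.0192). Against WT 1 alone they were 0.38 and 0.14, not called. DESeq2 also called Adrb1 higher in HOMO against WT (adjusted p = 0.0382).

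Adra1a and Adra1b encode alpha-1 receptors. Adra1a varied widely within each genotype: 34.6 and 6.93 CPM in WT, 50.9, 17.2 and 40.7 CPM in HET and 68.9, 32.7 and 53.3 CPM in HOMO. All 3 genotypes overlapped. The log2 fold change was 1.31 in HOMO against WT (SE 0.77, interval -0.53 to 3.16, adjusted p = 0.253) and 0.80 in HET against WT (SE 0.76, interval -1.01 to 2.62, adjusted p = 0.477). Against WT 1 alone it was 0.61 and 0.09, and against WT 2 alone 2.90 and 2.39 (adjusted p = 0.0605 and 0.0935). The male libraries averaged 51.9 CPM and the female libraries 24.4 CPM. With a term for sex, male exceeded female by 1.22 on the log2 scale (SE 0.38), which did not pass over all genes (adjusted p = 0.488). In that fit the log2 fold change was 1.36 in HOMO (adjusted p = 0.0781) and 1.27 in HET (adjusted p = 0.101). Adra1b was steadier, at 46.0 and 27.7 CPM in WT, 41.1, 34.1 and 55.1 CPM in HET and 45.3, 45.7 and 45.1 CPM in HOMO. Its genotypes overlapped, and its log2 fold change was 0.30 in HOMO (interval -0.21 to 0.81, adjusted p = 0.361) and 0.24 in HET (-0.27 to 0.75, adjusted p = 0.475). Against WT 2 alone Adra1b was called higher, by 0.72 in HOMO (adjusted p = 0.0309) and 0.66 in HET (adjusted p = 0.0453), and against WT 1 alone the values were 0.01 and -0.05.

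Adcy5 and Adcy6 encode the 2 closely related cyclases that heart muscle uses most, and both are inhibited by Gi and by calcium. Adcy5 had 114 and 66.2 CPM in WT, 138, 153 and 204 CPM in HET and 185, 150 and 157 CPM in HOMO. Every deletion library lay above WT 1, the higher of the WT libraries. Adcy5 was 1.82-fold higher in HOMO (log2 fold change 0.86, SE 0.24, adjusted p = 0.0238) and rose by 0.87 on the log2 scale in HET (SE 0.24, adjusted p = 0.0228), while HOMO and HET differed by -0.01 (interval -0.47 to 0.46). The call rested on WT 2. Without it the log2 fold change was 0.55 in HOMO (adjusted p = 0.127) and 0.56 in HET (adjusted p = 0.118). The HOMO call was also lost without HOMO 1 (adjusted p = 0.0729) or HOMO 3 (adjusted p = 0.0542), and the HET call without HET 3 (adjusted p = 0.0682) or when only WT and HET libraries were fitted (adjusted p = 0.056).

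Adcy6 was the most abundant member and moved little, at 473 and 466 CPM in WT, 373, 431 and 393 CPM in HET and 486, 434 and 502 CPM in HOMO. HET lay below WT and below HOMO in each library, and WT lay within the range of HOMO. None of the differences passed: 0.01 in HOMO against WT (interval -0.27 to 0.30, adjusted p = 0.952), -0.23 in HET against WT (-0.52 to 0.05, adjusted p = 0.204) and 0.25 in HOMO against HET (-0.01 to 0.51, adjusted p = 0.9996), all log2. The exons of Adcy6 overlap those of an antisense gene, Gm29331. The intervals leave room for changes of at most 0.30 upward and 0.27 downward in HOMO against WT, so a change of the size estimated for Adcy5 lies outside them.

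Adrbk1, also named Grk2, encodes the kinase that phosphorylates active beta receptors and so starts their desensitisation. It had 98.0 and 95.2 CPM in WT, 90.2, 95.5 and 113 CPM in HET and 103, 91.1 and 95.3 CPM in HOMO. The genotypes overlapped. Its log2 fold change was -0.003 in HOMO against WT (interval -0.28 to 0.28, adjusted p = 0.988) and 0.04 in HET against WT (-0.24 to 0.32, adjusted p = 0.834).

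**Figure D2:**
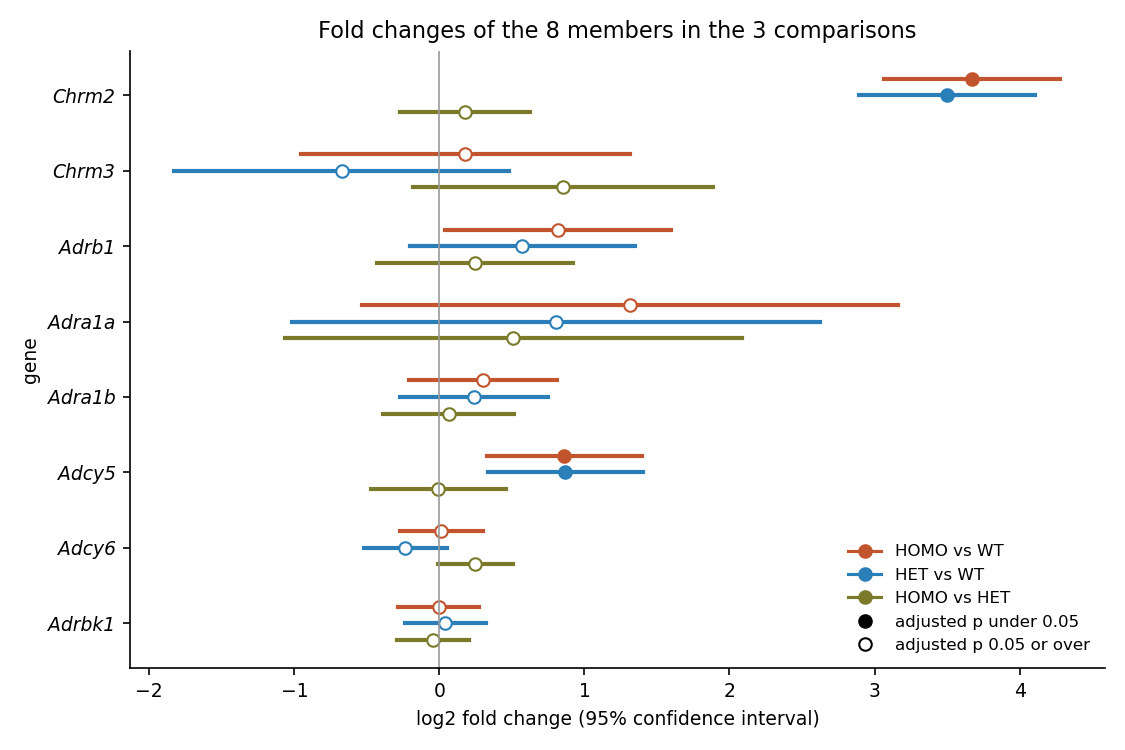
Log2 fold change of each member (horizontal axis) with its 95% confidence interval in the 3 comparisons; filled points passed the threshold of 0.05 on the adjusted p. Chrm2 stands at 3.67 and 3.50 against WT, Adcy5 at 0.86 and 0.87, and each interval for HOMO against HET includes 0.

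HOMO and HET, which carry 2 and 1 deleted alleles, did not differ in any member by the test. Of all 15075 genes, 0 were called between them by edgeR, with 411 at an unadjusted p under 0.05 (2.73%). DESeq2 called 2 genes (0.0105%) and limma-voom 0. The groups did not overlap for 2 members, Chrm3 and Adcy6, both higher in HOMO, beside 6.19% of all genes higher and 5.15% lower without overlap. Against WT, HOMO did not overlap for 3 members, Chrm2, Adrb1 and Adcy5, all higher, and HET for 4, Chrm2 and Adcy5 higher and Chrm3 and Adcy6 lower. Among all genes 27.6% were higher and 27.2% lower without overlap in HOMO, and 25.7% and 25.6% in HET.

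Levels between genes are compared per kilobase of exon, with all values as genotype means in CPM per kb. In WT the order was Adcy6 (69.2), Adrbk1 (21.6), Adcy5 (12.6), Adra1b (10.9), Adrb1 (3.97), Adra1a (2.38), Chrm2 (0.936) and Chrm3 (0.147). The ranges of Adcy5 and Adra1b overlapped, as did those of Adrb1 and Adra1a and those of Adra1a and Chrm2. In the deletion genotypes Chrm2 moved from the seventh to the fifth place, at 10.5 in HET and 11.9 in HOMO, where its range overlapped that of Adra1b above it and not that of Adrb1 below. Adcy5 moved to the second place, at 22.9 and 22.8, overlapping Adrbk1. These places rest on the length of all exons of a gene, 7184 bases for Adcy5 and 4476 for Adrbk1. Their longest transcripts have 7008 and 3376 bases, so the order of these 2 genes depends on the length used. The same holds for Adra1a (8728 and 4282 bases) and Adrb1 (3382 and 2952 bases). The ratio of Chrm2 to Adrb1 per length was 0.226 and 0.258 in WT, 1.50 to 2.04 in HET and 1.04 to 2.51 in HOMO. By this length Adrb1 was thus the more abundant transcript in both WT libraries and Chrm2 in all 6 deletion libraries, though nearly even in HOMO 1 (1.04). The ratio of Adcy5 to Adcy6 was 0.229 and 0.134 in WT, 0.335 to 0.490 in HET and 0.295 to 0.36 in HOMO, so Adcy6 stayed the more abundant cyclase throughout.

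Among the other genes of the pathway, 127 of 141 listed passed the filter. In HOMO against WT 27 were higher and 13 lower, and in HET against WT 28 and 14, with 0 called between HOMO and HET. These shares lie near or a little above those of all genes (27.7% and 28.0%). Without WT 2, 24 were higher and 4 lower in HOMO, and 23 and 5 in HET, so fewer lower calls were made. With each of the 8 libraries left out in turn, 18 of the 27 higher and 3 of the 13 lower genes stayed called in every fit in HOMO, and 17 of 28 and 4 of 14 in HET. The lists' median log2 fold change was -0.05 and -0.002, beside -0.03 and -0.03 over all genes tested. Without WT 2 the lists' median was 0.09 in HOMO and 0.07 in HET, beside 0.02 and 0.03 over all genes tested.

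The cardiac subunits of the channel that the M2 receptor opens, Kcnj3 and Kcnj5, rose with it. Of 3 tested subunits of acetylcholine-gated potassium channels, 2 were higher in each deletion genotype, with a list median of 1.21 in HOMO and 1.09 in HET. Kcnj3 had 40.2 and 34.2 CPM in WT, 56.3, 98.9 and 82.6 CPM in HET and 70.4, 96.2 and 80.8 CPM in HOMO. The log2 fold change of Kcnj3 was 1.15 in HOMO (SE 0.23, adjusted p = 0.00539) and 1.09 in HET (SE 0.23, adjusted p = 0.00632). Kcnj5 had 46.4 and 35.2 CPM in WT, 80.7, 85.1 and 93.9 CPM in HET and 101, 88.7 and 93.0 CPM in HOMO. Its log2 fold change was 1.21 in HOMO (SE 0.15, adjusted p = 0.000539) and 1.09 in HET (SE 0.15, adjusted p = 0.000763). WT and deletion libraries did not overlap for either gene, and per length the ratio of Kcnj3 to Kcnj5 ranged from 0.626 to 1.04 over the 8 libraries. Without WT 2 Kcnj5 kept its call and Kcnj3 lost it (adjusted p = 0.066 in HOMO and 0.0731 in HET). The neuronal subunit Kcnj6, at 0.17 to 1.77 CPM, was not called.

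Rgs6, which speeds the shut-off of Gi signals in atrial and nodal cells, had 15.8 and 16.9 CPM in WT, 27.7 to 30.8 CPM in HET and 25.3 to 38.9 CPM in HOMO. It rose by 0.88 on the log2 scale in HOMO (adjusted p = 0.00792) and 0.84 in HET (adjusted p = 0.00945). It was the 1 gene higher of 16 tested RGS proteins in HOMO, where Rgs19 was the 1 lower (-0.80, adjusted p = 0.0343). In HET, Rgs1 was called higher, with 0 counts in WT and 8, 16 and 3 counts in HET. Its HET mean was 5.88-fold above a floor of 3 counts in the whole WT group. In HOMO it had a like 5, 22 and 5 counts and was not called. Rgs16 was called lower in HET (-1.40, adjusted p = 0.0384). Without WT 2 the calls of Rgs19, Rgs1 and Rgs16 were lost (adjusted p = 0.119, 0.137 and 0.157), while Rgs6 kept its calls. Of the 8 fits with a library left out, Rgs19 was called in 4, Rgs1 in 1, Rgs16 in 2 and Rgs6 in all 8. Bche, which encodes butyrylcholinesterase, an enzyme that breaks down acetylcholine, was the 1 gene called of 12 tested for transmitter synthesis, transport and breakdown. It had 15.2 and 14.3 CPM in WT, 58.0, 49.8 and 46.8 CPM in HET and 40.7, 41.8 and 45.2 CPM in HOMO. The rise was 1.53 in HOMO on the log2 scale (SE 0.14, adjusted p = 0.000134) and 1.80 in HET (SE 0.14, adjusted p = 7.17e-05).

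**Figure D3:**
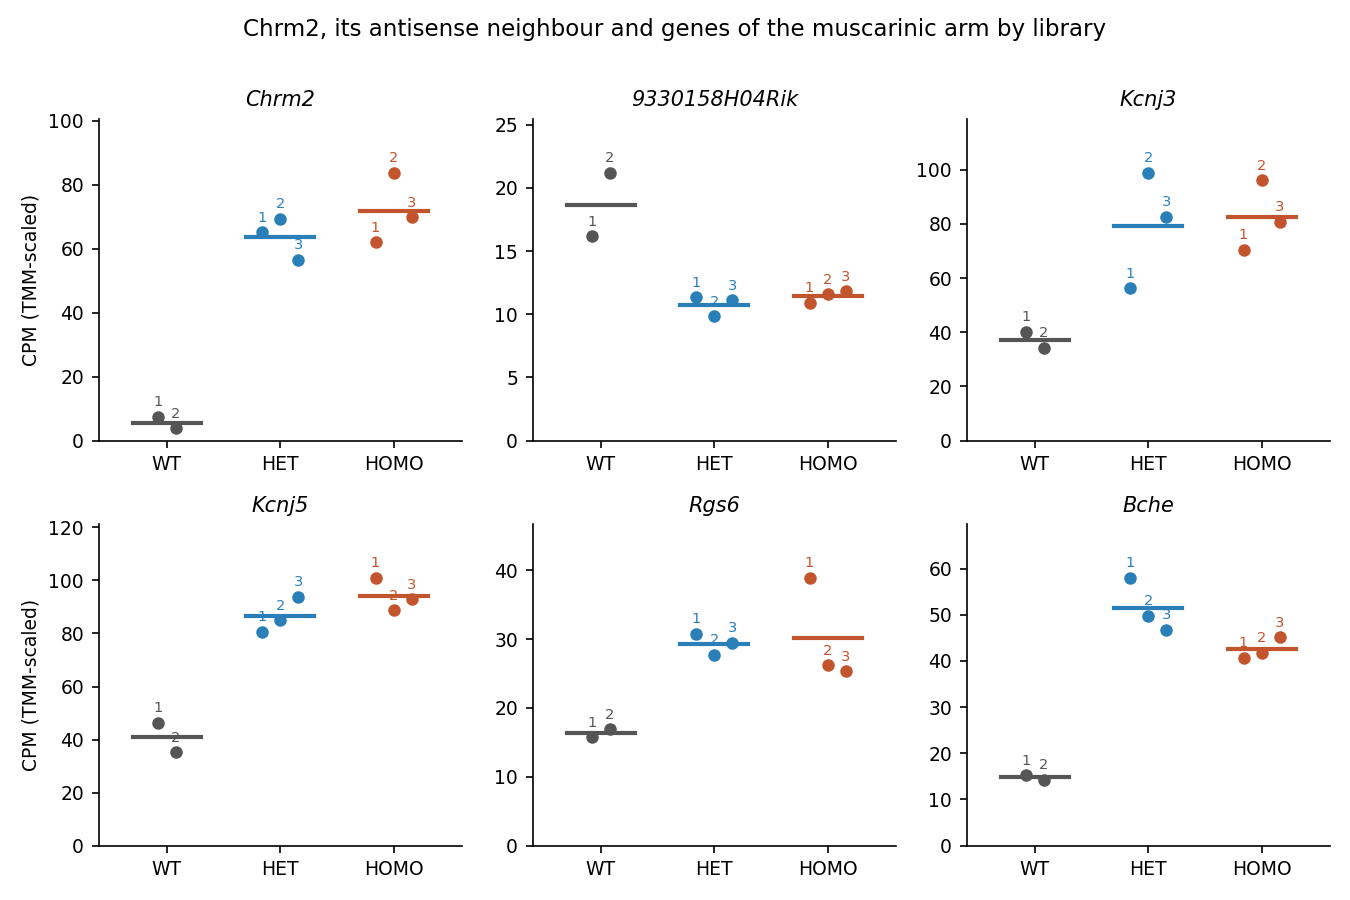
Level in each library (vertical axis, TMM-scaled CPM from 0; horizontal axis, genotype) of Chrm2, the antisense lincRNA 9330158H04Rik, the channel subunits Kcnj3 and Kcnj5, Rgs6 and Bche; points are libraries and bars genotype means. The deletion libraries lie above both WT libraries in 5 panels and below them for 9330158H04Rik.

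The 4 other tested muscarinic and adrenergic receptors gave no call. Adra1d had a log2 fold change of 0.96 in HOMO (adjusted p = 0.0893) and 0.56 in HET (adjusted p = 0.306), and was called higher against WT 2 alone (1.78, adjusted p = 0.00475 in HOMO and 1.38, adjusted p = 0.0171 in HET). Chrm1, Chrm4, Chrm5, Adrb3 and Adra2a did not pass the filter on low counts.

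Of 27 tested G protein subunits, 3 were higher and 5 lower in HOMO, and 3 and 4 in HET, with medians of -0.23 and -0.29. Gna12 and Gna13, subunits of the G12/13 class, and Gnaq, the Gq subunit, were the 3 that rose in both genotypes. Of the lower genes, Gnas and Gnb2 were called in both, Gng5, Gng10 and Gngt2 in HOMO, and Gnal and Gng11 in HET. Without WT 2 these last 5 lost their calls, which left 3 higher (Gna12, Gna13 and Gnaq) and 2 lower (Gnas and Gnb2) in each genotype. The calls of Gnaq were lost without WT 1, among other libraries (highest adjusted p = 0.091 in HOMO and 0.0661 in HET), and that of Gnas in HOMO without HOMO 3 (adjusted p = 0.0517). Gna12 had a log2 fold change of 1.62 in HOMO (adjusted p = 0.000669) and 1.53 in HET (adjusted p = 0.000789). Gnas, the Gs subunit that couples beta receptors to cyclase, fell by 0.53 on the log2 scale in HOMO (adjusted p = 0.0121) and by 0.61 in HET (adjusted p = 0.00608), from 1368 and 1314 CPM in WT to 848 to 989 CPM. Gnb2, a beta subunit, was lower as well, with -1.04 and -1.08 (adjusted p = 0.000915 and 0.00069).

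Of 7 other tested cyclases, Adcy9 and Adcy1 were higher and Adcy4 lower in both genotypes. Adcy9 had 31.5 and 20.7 CPM in WT, 54.1 to 60.4 CPM in HET and 55.3 to 59.3 CPM in HOMO, with log2 fold changes of 1.14 and 1.12 (adjusted p = 0.00135 and 0.00136). Without WT 2 the calls of Adcy1 (adjusted p = 0.115 in HOMO and 0.268 in HET) and Adcy4 (adjusted p = 0.106 and 0.173) were lost. The HET call of Adcy1 was also lost without WT 1, HET 1, HET 2, HET 3 or HOMO 2 (adjusted p = 0.0503 to 0.131), and in 11 of the 21 alternatives in all. The HET call of Adcy4 was also lost without HET 1 (adjusted p = 0.052). Among 6 other receptor kinases and arrestins, Arrb2, which binds phosphorylated receptors, was lower in both (-1.01 and -1.09, adjusted p = 0.00223 and 0.00137). Grk5, the other main receptor kinase of heart muscle, passed in HET (0.68, adjusted p = 0.0278) and not in HOMO (0.49, adjusted p = 0.0865). Without WT 2 it passed in both (0.82, adjusted p = 0.0245 in HOMO and 1.01, adjusted p = 0.00958 in HET), and the HET call was lost without WT 1, HET 2 or HET 3 (adjusted p = 0.112, 0.0762 and 0.0739). HOMO and HET were not shown to differ (-0.18).

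Protein kinase A, its inhibitors and anchors and the Epac exchange factors gave the most calls of the 10 lists with all libraries: 11 of 21 tested were higher and 2 lower in HOMO, and 10 and 2 in HET, with medians of 0.61 and 0.57. Prkar2a, the RII-alpha regulatory subunit, had 52.8 and 30.4 CPM in WT and 140 to 145 CPM in the 6 deletion libraries (log2 fold change 1.78 in each comparison, adjusted p = 0.000372 and 0.000336). Pkia, which encodes an inhibitor of the catalytic subunit, rose by 1.83 in HOMO and 1.82 in HET (log2, adjusted p = 0.000474 and 0.000463). The anchors Akap9 (0.91 and 0.85) and Akap11 (1.23 and 1.13) rose as well. The 2 lower genes were the anchor Akap8 (-0.57 and -0.52) and Rapgef3, which encodes Epac1 (-0.59 and -0.43). Without WT 2, 9 were higher and 0 lower in HOMO, and 8 and 0 in HET. The HET call of Rapgef3 (adjusted p = 0.0436) was lost with any of 7 of the 8 libraries left out.

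Of 15 tested protein kinase A targets of heart muscle, 3 were higher and 3 lower in HOMO, and 3 and 4 in HET. Hcn4, given above, was among those higher and Lipe, hormone-sensitive lipase, among those lower in both, while Hspb6 was lower in HET (-0.54, adjusted p = 0.0409), a call kept in 1 of the 8 fits with a library left out. Without WT 2, 2 were higher (Pln and Ryr2) and 1 lower (Fxyd1) in each genotype. In those fits Lipe was not called (adjusted p = 0.177 in HOMO and 0.211 in HET). Ryr2, the calcium release channel, rose by 1.12 in HOMO and 1.20 in HET (adjusted p = 0.00133 and 0.000896), and Pln, the inhibitor of the calcium pump of the sarcoplasmic reticulum, by 0.78 and 0.91 (adjusted p = 0.00335 and 0.00144). Fxyd1, phospholemman, was lower (-0.68 and -0.84, adjusted p = 0.00476 and 0.00163), as was Tnni3, cardiac troponin I (-0.76 and -0.71, adjusted p = 0.0171 and 0.023). The Tnni3 calls were lost without WT 2 (-0.30 and -0.25, adjusted p = 0.188 and 0.273), which held 10231 CPM of Tnni3 against 6069 CPM in WT 1. Tnni3 was called in 5 of the 8 fits with a library left out in HOMO and in 4 in HET. Of 16 tested Gq effectors, 4 were higher in both genotypes (Plcb4, Camk2d, Prkca and Plce1), and 1, Prkch, was called lower in HET. Without WT 2 the calls of Prkca (adjusted p = 0.0526) and Prkch (adjusted p = 0.295) in HET were lost. Leaving out HOMO 1 or HOMO 3 ended the HOMO call of Plce1 (adjusted p = 0.0704 and 0.0674). Plcb4, a phospholipase C, rose by 1.16 and 1.33 (adjusted p = 0.00549 and 0.00283).

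**Figure D4:**
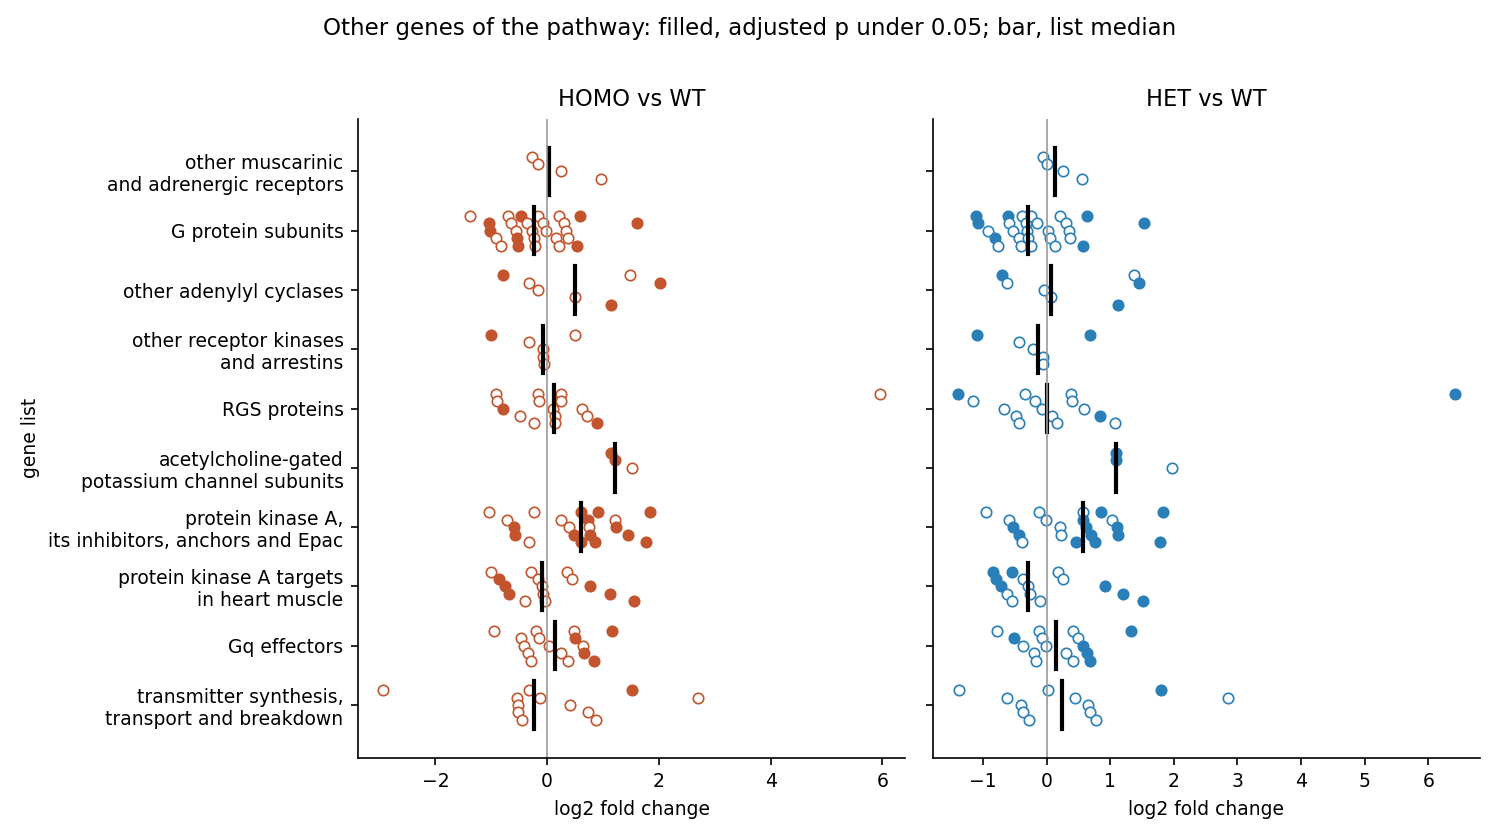
Log2 fold change (horizontal axis) of each tested gene of the 10 pathway lists against WT; filled points passed the threshold of 0.05 on the adjusted p and bars are list medians. The channel subunits (1.21 and 1.09) and the protein kinase A list (0.61 and 0.57) have the highest medians; the far right point among the RGS proteins is Rgs1, with 0 counts in WT, whose fitted value is no bound.

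A correction of each library for GC content and for the lengths of transcript and 3' UTR lowered the calls to 14.1% of genes in HOMO and 13.4% in HET. Under it Chrm2 stayed called at 3.09 in HOMO and 2.89 in HET, and Adcy5 stayed called. Pathway genes called went from 40 to 25 in HOMO and from 42 to 21 in HET. In the protein kinase A list 5 were then higher and 1 lower in HOMO, and 2 and 1 in HET, where G protein subunits gave the most calls (2 higher and 5 lower). Kcnj5, Gna12, Gnb2, Adcy9, Arrb2, Prkar2a, Pkia, Ryr2, Pln, Plcb4 and Bche kept their calls in both genotypes under it. Of these, Gnb2, Ryr2 and Plcb4 lost their calls in 1 of the 21 alternatives in each genotype, and Arrb2 and Pln in 2. Each of these losses included the correction combined with leaving out WT 2. Kcnj3 (adjusted p = 0.0485), Adcy1 and Akap11 kept theirs in HOMO and lost them in HET, and Gnas kept its call in HET and lost it in HOMO (adjusted p = 0.0513). Rgs6, Gna13, Gnaq, Adcy4, Akap9, Fxyd1, Tnni3, Camk2d, Prkca and Plce1 lost their calls in both genotypes, as Rgs19 did in HOMO and Grk5, Rgs1 and Rgs16 did in HET. In HOMO, Fxyd1 and Plce1 also turned sign under the correction.

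**Figure D5:**
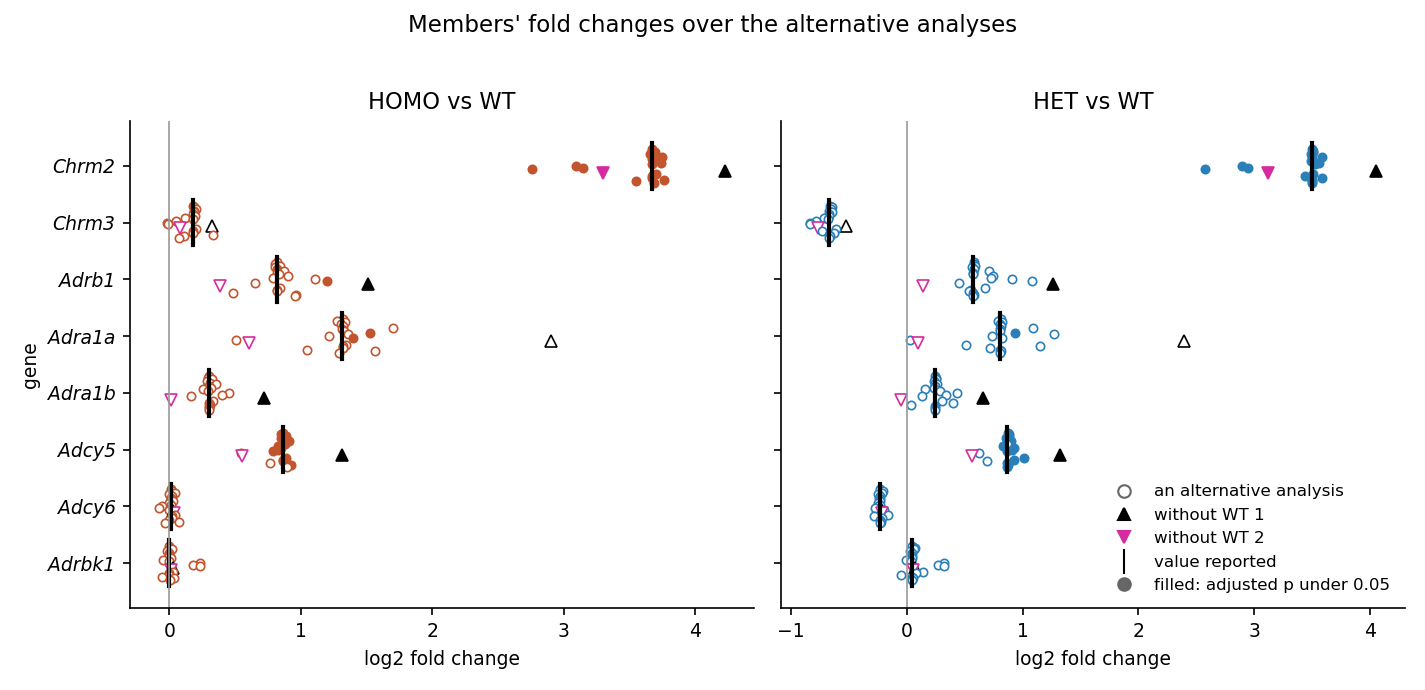
Log2 fold change (horizontal axis) of each member against WT under 21 alternative analyses; filled symbols passed the threshold of 0.05 on the adjusted p, triangles mark the fits without WT 1 or WT 2, and black bars are the values reported. Chrm2 stays filled throughout, at 2.57 to 4.23, while Adrb1, Adra1b and Adcy5 pass or miss the threshold according to the WT library kept. Adrb1 and Adcy5 do so by other alternatives as well, and Adra1a passes with the replicate block.

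The genes whose levels followed each member most closely were found by Pearson's r of log2 CPM over the 8 libraries among 10727 genes with a mean of at least 5 CPM, given as a description since the libraries share genotype and depth. For Chrm2 they were Dmd (r = 0.996), Rel (0.996) and Bmpr1a (0.996). For Adcy5 they included Spata2 (0.982) and Hcn4 (0.981). For Adrb1 they were Aco1 (0.982), Zfp36l1 (0.982) and Mmachc (0.979), and for Adra1a Wnt9a (0.987), Arhgap19 (0.979) and Qsox2 (0.974). For Adra1b they were Selo (0.925), Best3 (0.909) and Arl6ip5 (0.908). The closest gene by r was Add1 (0.902) for Chrm3, Pccb (0.947) for Adcy6 and Abhd8 (0.924) for Adrbk1. Spearman's rho, on ranks, went from 0.476 for Aco1 with Adrb1 to 0.976 for Spata2 with Adcy5 and Pccb with Adcy6. It was 0.548 for Best3 with Adra1b and 0.690 for Rel with Chrm2, so a high r need not mean a like order of libraries.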

How the data were processed

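Whole-heart RNA of 8 mice was sequenced. The authors deposited raw counts per gene symbol, with no normalization, in 1 table with a column per library. Trimmomatic 0.36, HISAT2, DESeq2 and featureCounts of Subread are named with the mm10 build, per the submitters' processing notes, while annotation, strand setting and treatment of multi-mapping reads were not given in the sources used here. Libraries were TruSeq per the labels' protocols.

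Genes were filtered by filterByExpr (15075 of 24516 kept), scaled by TMM and fitted in 1 robust quasi-likelihood model of edgeR 4.0.16 (R 4.3.3) over all 8 libraries. Benjamini-Hochberg adjustment over all genes and a threshold of 0.05 were used, and tests are two-sided. Leaving out a WT library leaves 1, whose spread is then assumed to be that of the other groups. Intervals are at 95%. For Rgs1, at 0 counts in WT, a floor of 3 counts in the whole group was used (counting error only). Positions and exon lengths are from GENCODE vM21 (98.5% of symbols matched) and promoters from RefSeq. Adrbk1 was matched to Grk2 by its older symbol.

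The members and lists were chosen with earlier results of these data known. Named genes are the members, Actn2, up to 4 genes of each pathway list by p in HOMO against WT and up to 2 in HET against WT, and the 3 genes most like each member. Some genes that this rule picks are not reported here, with none put in their place; counts over lists include them. Other genes are named where a count is 5 or fewer, or beside a member's locus or a marker list, and were chosen after their values were seen. The fit was tested on simulated counts. For HOMO against WT, 48% of 98 genes changed 2-fold and 82% of 100 changed 4-fold were recovered. False calls were 7 among 14821 genes, and 12 for HET against WT and 15 for HOMO against HET. The simulated libraries varied independently, with few genes changed and no outlying WT library. These false calls therefore do not gauge those in the real data. Alternatives covered scaling, filter, tool (DESeq2 1.42.0, limma-voom of limma 3.58.1), a non-robust fit, the compared groups alone, replicate block, sex term, correction for gene properties (splines with 4 df each, 14154 genes) and each library left out.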

Additional observations from a re-analysis of the deposited data

How the results depend on the processing

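Chrm2 was called higher in both deletion genotypes under each of the 21 alternatives (log2 fold change 2.76 to 4.23 in HOMO against WT, 2.57 to 4.06 in HET against WT). Adcy5 kept its direction under each of them and lost its call as given in the report, and also with the correction for gene properties without WT 2 (adjusted p = 0.163 in HOMO and 0.117 in HET). Over 103 single-gene values, 1899 recomputed values kept direction and call, 158 lost the call, 29 gained it and 53 changed sign. Where no construction of the alternative shows it (fewer samples or genes), the cause was not tested.

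Genes called in HOMO against WT numbered 1991 with the correction for gene properties, 1509 with that correction and the replicate block, and 725 with it and without WT 2. In HET against WT they numbered 1893, 1358 and 694, and 2668 in a fit of only the compared groups. Pathway genes called were 25, 19 and 9 in HOMO and 21, 17 and 8 in HET under the same 3 corrections. Members called were 4 in HOMO with the correction and the block, 1 in each genotype with the correction without WT 2, and 1 in HET with only the compared groups. Leaving out 1 library at a time gave 2135 to 5717 genes and 1 to 4 members in HOMO, and 2359 to 5634 genes and 1 to 4 members in HET. Each lowest count of genes was without WT 2. HOMO against HET gave 2 genes with no filter on low counts, 2 with DESeq2, 2 with the correction without WT 2, and 0 to 1 with a library left out (1 without HOMO 2).

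Whether the replicate numbers pair the samples is not settled. Deviations from the genotype means of same-numbered libraries correlated at -0.0228 to 0.1775, and not every library correlated best with its own number. Deviations from means of 2 or 3 libraries cannot decide it, since they are tied to one another within a genotype. By Xist and Y-linked counts, number 1 was male and number 2 female in each genotype, while HET 3 was female and HOMO 3 male. With the replicate block 3328 genes and 3 members were called in HOMO and 3376 genes and 3 members in HET, the added member being Adra1a (1.53, adjusted p = 0.00721 in HOMO and 0.93, adjusted p = 0.0352 in HET). Within number 1 Adra1a stood at 34.6 CPM in WT, 50.9 CPM in HET and 68.9 CPM in HOMO, and within number 2 at 6.93, 17.2 and 32.7 CPM. With the correction and the block Adrb1 (1.20, adjusted p = 0.034) and Adra1a (1.4, adjusted p = 0.013) were called in HOMO.

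The turned values mostly lay near 0, and none of them was itself called. Some belonged to genes that the main fit called at values not near 0. In HOMO these were Tnni3 (-0.76 in the main fit), Fxyd1 (-0.68), Prkca (0.66) and Plce1 (0.51). In HET they were Tnni3 (-0.71), Camk2d (0.69) and Prkca (0.64). With the correction for gene properties the sign turned in HOMO against WT for Adcy6 (-0.059), Adrbk1 (0.23), Adra2c (0.0604), Fxyd1 (0.0401) and Plce1 (-0.019) and in HET against WT for Adra2b (0.022). With that correction with the replicate block the sign turned in HOMO against WT for Chrm3 (-0.021), Adcy6 (-0.083), Adrbk1 (0.18), Adra2c (0.18), Fxyd1 (0.071) and Plce1 (-0.071). With that correction without WT 2 the sign turned in HOMO against WT for Chrm3 (-0.0103), Adcy6 (-0.0044), Adrbk1 (0.23), Actn2 (0.0202), Tnni3 (0.053) and Prkca (-0.032) and in HET against WT for Adra2b (0.14), Tnni3 (0.091), Camk2d (-0.0087) and Prkca (-0.056). With a fit of only the compared groups the sign turned in HOMO against WT for Adrbk1 (0.012). With scaling to total counts the sign turned in HOMO against WT for Adrbk1 (0.0051). With no filter on low counts the sign turned in HOMO against WT for Adrbk1 (0.023) and in HOMO against HET for Adcy5 (0.0043). With a filter at a mean of 1 CPM the sign turned in HOMO against WT for Adcy6 (-0.0047). With the replicate block the sign turned in HOMO against WT for Adcy6 (-0.0028) and in HET against WT for Adrbk1 (-0.0051). With limma-voom the sign turned in HOMO against HET for Adcy5 (0.011). Leaving out 1 library at a time turned a sign within these ranges: in HOMO against WT for Adcy6 -0.031 to 0.076, Adrbk1 -0.052 to 0.039 and Adra2c -0.99 to 0.11. The ranges were in HET against WT for Adra1b -0.051 to 0.66, Adrbk1 -0.053 to 0.13, Adra2b -0.19 to 0.16, Adra2c -0.011 to 0.65, Adcy3 -0.12 to 0.34 and Arrb1 -0.14 to 0.035. They were in HOMO against HET for Adrb1 -0.086 to 0.39, Adra1b -0.089 to 0.27, Adcy5 -0.12 to 0.17 and Adrbk1 -0.11 to 0.053.

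Depth limits Chrm3, with 12 to 65 counts in a library. Of genes changed 2-fold in simulated counts, 48% were found for HOMO against WT and 56.6% for HET against WT. These shares are over genes of all levels, and the share found at the level of Chrm3 was not computed.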
